A study of Rattus norvegicus with 9 samples.

Results

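The 10 genes described here encode enzymes that remove reactive oxygen species, together with heme oxygenase 1 and the transcription factor that drives many of them. They are Sod1, Sod2, Sod3, Cat, Gpx1, Gpx3, Prdx1, Hmox1, Nqo1, and Nfe2l2. They were chosen by gene name from a table of 32043 rat genes, each name matched 1 entry, and all 10 passed the filter on low values, a mean FPKM of 0.5 or more, that left 13898 genes to test. The values were measured in 9 RNA sequencing libraries of knee cartilage, as FPKM, a read count scaled by gene length and by a size factor of each library.

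Superoxide leaks from the respiratory chain and is also made on purpose by NADPH oxidases. Superoxide dismutases turn it into hydrogen peroxide, with SOD1 in the cytosol, SOD2 in the mitochondrial matrix, and SOD3 bound to the extracellular matrix, where cartilage is one of the tissues known to hold it. Catalase, the glutathione peroxidases, and the peroxiredoxins then reduce the peroxide, and NRF2, the product of Nfe2l2, is a factor kept low by KEAP1 that switches on Nqo1, Hmox1, Prdx1, and other genes when electrophiles or oxidants build up.

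The animals were male Sprague-Dawley rats, 8 weeks old when bought. In the model group, knee osteoarthritis (KOA) was induced with the modified Hulth operation, in which ligaments of the knee are cut and the medial meniscus is taken out, so that the joint is unstable. The protocol of the model also included daily forced activity for 4 weeks after surgery. The control rats only had the joint capsule opened and closed again. The SYD-H group had the same KOA induction and was then given Shengyu decoction (SYD), a herbal extract, by gavage for 4 weeks at the highest of the doses in the study, and tissue was taken 8 weeks after surgery. Each group had 3 libraries, named here by group and the number in the labels. The sample labels name the treated libraries syd with no dose, so the dose comes from the text of the study, whose Methods mention only control and model tissue for sequencing. The library names of the treated samples begin with CXTB, which the labels do not explain, and the study also had a group given celecoxib (CXB), so the group rests on the word syd in the titles. No label says whether the 3 libraries of a group came from different rats, so the p-values measure the spread between libraries, which may be technical.

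Promoter sequence is shown for 3 of the genes: Sod2 and Nqo1, whose control, SYD-H, and model libraries formed 3 ranges without overlap, a pattern picked after the values were seen that 2.66% of all tested genes showed in any order and 0.446% in this order, and Prdx1, whose promoter held the most copies of the motifs searched. NRF2 with a small MAF partner binds the antioxidant response element, whose core was searched as TGACNNNGC, and TGACTCA is the AP-1 site, which can lie inside it. Both strands were searched in the 300 bases that run from 250 before to 50 after the start of each gene in the RefSeq annotation of GRCr8. Of the 10 genes, 8 had an entry, all but Sod3 and Hmox1. Capitals mark a match, read on the strand of the gene. The promoter of Sod2 lies at chr1:50050119-50050418 on the minus strand, that of Nqo1 at chr19:52220218-52220517 on the minus strand, and that of Prdx1 at chr5:135383656-135383955 on the plus strand.
Sod2: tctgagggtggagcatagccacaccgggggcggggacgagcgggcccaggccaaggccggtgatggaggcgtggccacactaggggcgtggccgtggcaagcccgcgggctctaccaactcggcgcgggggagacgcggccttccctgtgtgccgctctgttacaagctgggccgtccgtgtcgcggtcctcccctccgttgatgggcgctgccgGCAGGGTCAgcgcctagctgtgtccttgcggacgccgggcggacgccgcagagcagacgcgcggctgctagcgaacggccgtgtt
Nqo1: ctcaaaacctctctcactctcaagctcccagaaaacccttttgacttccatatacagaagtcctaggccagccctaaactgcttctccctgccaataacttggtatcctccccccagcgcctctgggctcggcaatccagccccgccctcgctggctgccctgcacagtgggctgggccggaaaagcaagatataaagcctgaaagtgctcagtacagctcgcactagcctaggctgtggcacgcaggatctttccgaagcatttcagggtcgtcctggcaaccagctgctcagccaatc
Prdx1: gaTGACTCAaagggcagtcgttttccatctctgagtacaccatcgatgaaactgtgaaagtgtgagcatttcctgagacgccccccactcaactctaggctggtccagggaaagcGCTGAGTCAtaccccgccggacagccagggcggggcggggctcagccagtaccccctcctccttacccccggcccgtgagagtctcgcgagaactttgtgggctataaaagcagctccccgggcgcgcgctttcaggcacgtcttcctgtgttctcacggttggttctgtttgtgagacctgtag

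The response element core was found in 3 of the 8 promoters, those of Sod2, Prdx1, and Nfe2l2, and in 12.1% of all 33469 promoters of this length. In Sod2 the match was TGACCCTGC on the opposite strand, beginning 35 bases before the start. In Prdx1 it was TGACTCAGC, also on the opposite strand, which overlaps an AP-1 site, and a further AP-1 site stood 248 bases before the start. The AP-1 letters were found in 4.63% of all promoters and, of the 8, in Prdx1 only. No match was found in the Nqo1 window, which says only that these letters are not within it. The deposited table gives positions in a rat build it does not name, which are not those of GRCr8. There, Sod1 (ENSRNOG00000002115) spans 29456558 to 29462249 on chromosome 11, Sod2 (ENSRNOG00000019048) 47636528 to 47645189 on chromosome 1, Gpx3 (ENSRNOG00000052564) 39028570 to 39037035 on chromosome 10, and Nqo1 (ENSRNOG00000012772) 35295573 to 35310557 on chromosome 19.

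The libraries differed in ways that touch the results. They held 14914121 to 19510537 reads, recovered from the FPKM values, of which mitochondrial genes took 4.05% to 4.86% in the control group, 90.7%, 39.5%, and 81.3% in model 1, 2, and 3, and 23.7%, 34.7%, and 72.7% in SYD-H 1, 2, and 3. The reads left for nuclear genes ran from 1744769 in model 1 to 17373645 in control 3, so the values of model 1, model 3, and SYD-H 3 rest on fewer reads. The size by which the deposited FPKM were scaled, worked out from the steps between values, followed these nuclear reads and not all reads: it was 1.84 to 2.38 times the nuclear reads in every library, but 2.01 to 2.18 times all reads in control against 0.193 in model 1 and 0.343 in model 3. The 13 chondrocyte markers summed to 485 FPKM in control 2 against 5952 and 11517 in the other control libraries, to 171 to 916 in the model libraries, and to 169 to 1493 in the SYD-H libraries, and Matn1 was listed at 0 in every model and SYD-H library. The extraction notes mention retina, but the 9 photoreceptor markers together reached at most 6.16 FPKM in any library. In bulk tissue, fewer cells of a type and less RNA per cell cannot be told apart.

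In the control libraries peroxide-removing enzymes stood highest. Gpx1, a selenium enzyme of the cytosol and mitochondria, averaged 507 ± 185 FPKM (SD, n = 3), which is above 99.6% of the tested genes in each library. Prdx1 followed with 64.6 ± 1.14. Relative to the mean, its 3 control values of 63.3, 65.5, and 65.0 were the closest together of the 10 genes, with an SD of 1.76% of the mean. Sod1, Cat, Gpx3, and Hmox1 lay between 25.4 and 50.4 on average. Sod3 averaged 10.98, Sod2 10.6, and Nfe2l2 8.26, and Nqo1 was lowest at 2.24 ± 0.50 FPKM. Within this order the ranges of Sod1 and Cat, of Gpx3 and Hmox1, and of Sod3, Sod2, and Nfe2l2 overlapped, so these neighbours did not differ beyond their spread. Cat, at 37.4 to 67.3, also spanned the range of Prdx1, and Sod3 in control 2, at 1.85, lay within that of Nqo1.

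**Figure D1:**
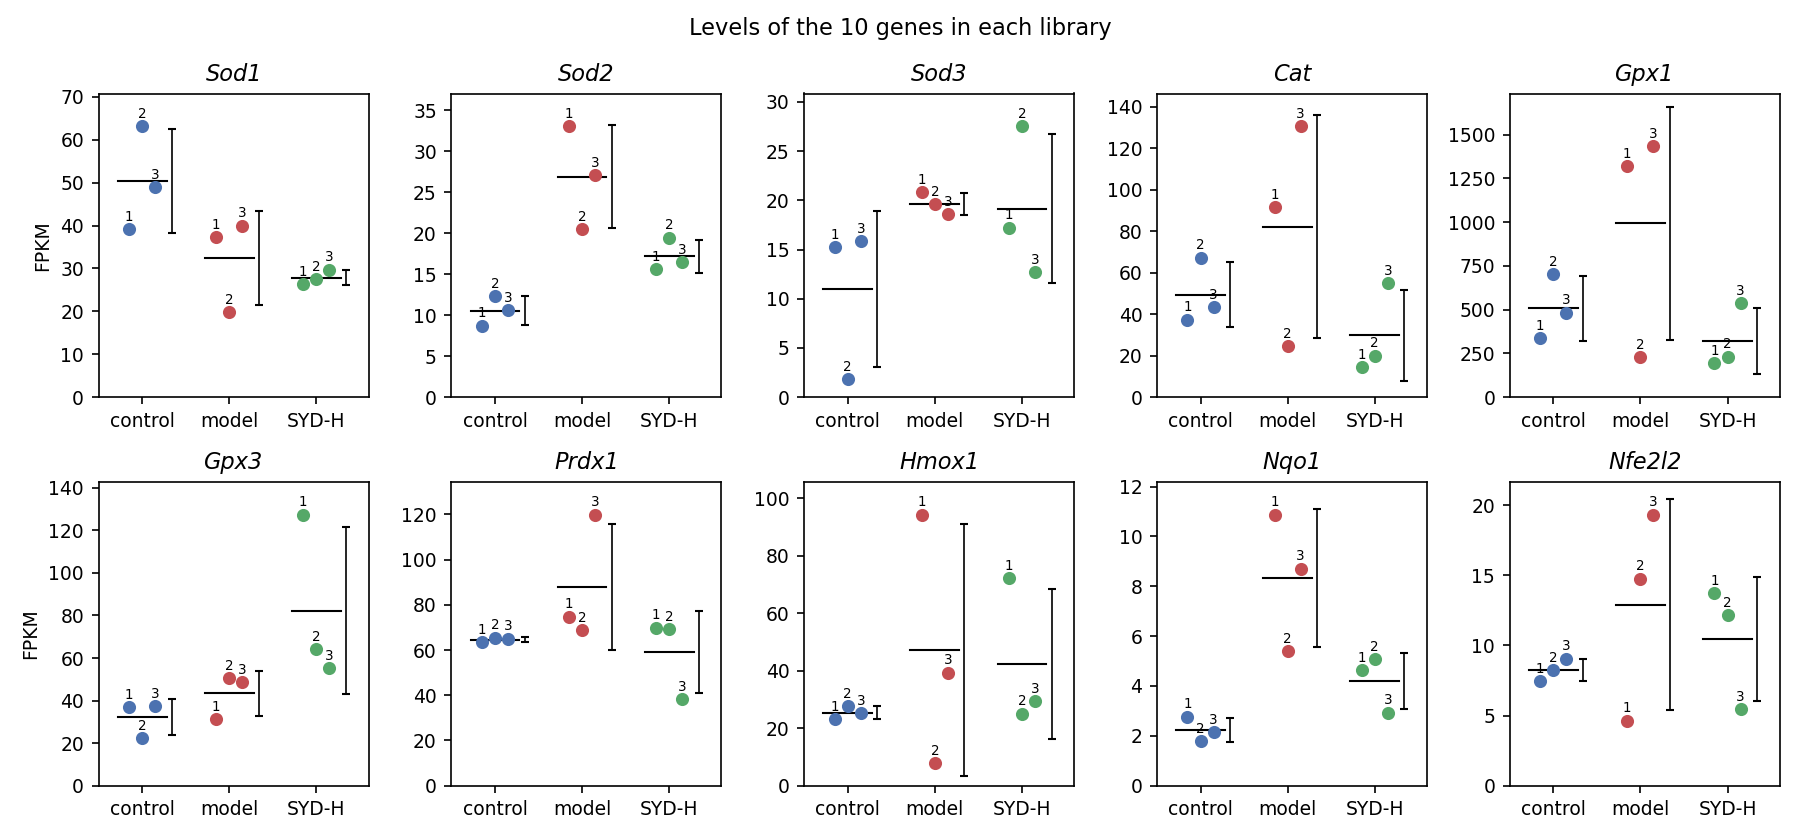
FPKM of each of the 10 genes (y axis, linear, from 0), with the groups side by side. Points are libraries with their label number, the horizontal line is the mean, and the bar beside it is 1 SD (n = 3). Sod2 and Nqo1 are the genes in which the control, SYD-H, and model libraries form 3 ranges that do not overlap.

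When compared with the control group, the model group had more Sod2 and Nqo1 RNA on the FPKM scale. Sod2, the manganese dismutase of mitochondria, was 8.74, 12.3, and 10.6 FPKM in control 1, 2, and 3 and 33.1, 20.5, and 27.1 in the model libraries. Every model library was above every control library, and the means differed by 2.54-fold. The log2 fold change of FPKM + 1 was 1.26 (SE 0.27), and the adjusted p in limma was 0.0719. Nqo1, a quinone reductase and a classic NRF2 target, went from 2.77, 1.80, and 2.14 FPKM to 10.9, 5.40, and 8.70, which is 3.72-fold between the means. On the log2 scale the difference was 1.49 (SE 0.36) with 0.0953 as the adjusted p in limma. These values rest on 67 to 242 Nqo1 reads and 467 to 2106 Sod2 reads per model library. Both genes met the criteria of the study for differentially expressed genes (DEGs), which ask for an unadjusted p under 0.05 together with a log2 fold change beyond 1 in either direction, and neither reached an adjusted p under 0.05.

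The mitochondrial share of reads was also higher in every model library, and its part in these differences was not tested. In model 2, whose share was 39.5%, Sod2 stood at 20.5 and Nqo1 at 5.40 FPKM, above all control libraries. With model 1 and model 3 left out, the log2 fold change of Sod2 was 0.91 (adjusted p = 0.0640 in limma) and that of Nqo1 was 1.00 (adjusted p = 0.0564), in a fit that gives model 2 the spread of the control libraries. Without model 2, both were called, with adjusted p of 0.0179 for Sod2 and 0.0191 for Nqo1, as were 18.9% of all genes. When FPKM was rescaled to TPM, which sets every library to the same sum over all genes, mitochondrial ones included, the log2 fold changes were -1.78 for Sod2 and -1.13 for Nqo1, with a median of -2.60 over all tested genes against -0.23 on the FPKM scale. Relative to that median, Sod2 was higher by 0.82 to 1.73 and Nqo1 by 1.47 to 2.20 under each of the 4 scalings.

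Neither of the other dismutases had an adjusted p under 0.05 on the FPKM scale. Sod1, the copper and zinc enzyme of the cytosol, was 39.2, 63.2, and 48.9 FPKM in control and 37.3, 19.9, and 40.0 in model. The model values were lower on the whole, but model 3 lay just above control 1, and the log2 fold change of -0.66 (95% interval -1.50 to 0.18) had an adjusted p of 0.367. It was -1.28 (adjusted p = 0.0623) with model 1 and model 3 left out and ran from -0.84 without model 3 to -0.35 without model 2. On TPM, Sod1 was called, at -3.79 with an adjusted p of 0.0121 in limma, where the median of all genes was -2.60. Sod3, the extracellular enzyme, was 15.2, 1.85, and 15.8 in control and 20.8, 19.6, and 18.6 in model. All model values were above all control values, yet the log2 fold change of 1.16 (SE 0.71, adjusted p = 0.431) rests largely on control 2, and without it the value was 0.32. Control 2 was also the control library with the lowest chondrocyte markers, with Col2a1 at 348 FPKM against 8323 and 4468, and the part of that in the low Sod3 was not tested. The chondrocyte sum was lower still in model 2 and model 3, at 217 and 171 FPKM, where Sod3 was 19.6 and 18.6.

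Nfe2l2 and Hmox1 spread out in the model group. Nfe2l2 was 7.46, 8.26, and 9.05 FPKM in control and 4.63, 14.8, and 19.3 in model, so model 1, with only 46 reads of the gene, lay below the control range and the others above it. Hmox1, which opens the heme ring to biliverdin, iron, and carbon monoxide, was 23.1, 27.7, and 25.3 in control and 94.3, 7.71, and 39.3 in model. The model values thus spanned 12.2-fold against 1.20-fold in control, on both sides of the control range. The log2 fold changes were 0.40 for Nfe2l2 and 0.29 for Hmox1, with adjusted p of 0.703 and 0.876 in limma. For Nfe2l2 the value was 0.96 (adjusted p = 0.0674) without model 1 and 0.029 without model 3. Without model 1 the value for Hmox1 was -0.49, and without model 2 it was 1.24, so its direction depends on which library is left out.

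Among the peroxide-removing enzymes, Gpx1 and Cat followed a common order over the libraries. Gpx1 was 336, 704, and 483 FPKM in control, 1319, 228, and 1434 in model, and 195, 231, and 536 in SYD-H. Cat was 37.4, 67.3, and 43.5, then 91.5, 24.5, and 131, then 14.5, 19.99, and 55.1. Both were high in model 1 and model 3 and low in model 2, SYD-H 1, and SYD-H 2. Red blood cells carry much catalase and glutathione peroxidase, and the 10 erythroid markers found of 13 listed summed to 6671, 16632, and 8270 FPKM in control, 39004, 310, and 45262 in model, and 1376, 1964, and 13942 in SYD-H. The sum was mostly Hba-a1, a globin of mature red cells, with 31685 of the 39004 FPKM in model 1. From control 1 upwards, the 6 highest libraries came in the same order for this sum, Gpx1, and Cat, and the 3 lowest were the same libraries in another order. Alas2 and Hbb kept that order too, from 183 and 705 FPKM in control 1 to 1121 and 5703 in model 3. Slc4a1 and Rhag were among the markers that did not. Slc4a1 was 473 FPKM in control 2 against 342 and 274 in model 1 and model 3, and Rhag was 65.8 against 15.6 and 10.3. The median log2 fold change of the 10 markers in model against control was -1.90, with 2 of them positive. Klf1, Epb42, and Rhag were listed at 0 in model 2. The part of red cell RNA in these levels was not tested.

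**Figure D2:**
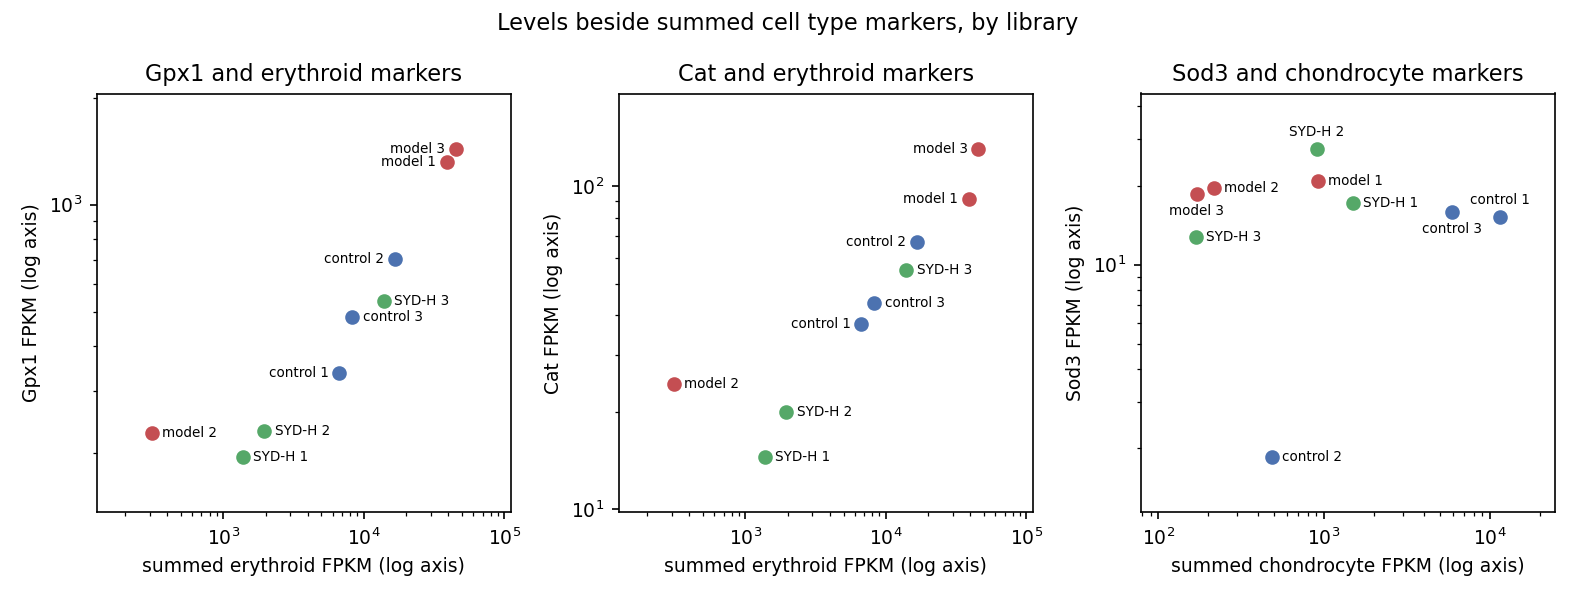
Gpx1 and Cat (FPKM, log axes) against the summed FPKM of 10 erythroid markers, and Sod3 against that of 13 chondrocyte markers, with 1 labelled point per library. Gpx1 and Cat are highest in model 3 and model 1, where the erythroid sum is 45262 and 39004, and Sod3 is lowest in control 2, where the chondrocyte sum is 485. That sum is lower still in model 2, model 3, and SYD-H 3, at 217, 171, and 169, where Sod3 is 19.6, 18.6, and 12.7 FPKM.

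The differences of Gpx1 and Cat between model and control were within the spread of the libraries, with log2 fold changes of 0.64 (95% interval -1.33 to 2.61, adjusted p = 0.704) and 0.47 (95% interval -1.08 to 2.02, adjusted p = 0.722). Left without model 2, Gpx1 was at 1.502 and Cat at 1.18, with adjusted p of 0.0637 and 0.0773, and both met the DEG criteria, as did 24.1% of all genes. Without model 3 they were at 0.18 and -0.011. Prdx1, a peroxiredoxin reduced by thioredoxin, was 74.8, 68.8, and 120 FPKM in model. All were above the tight control range, but the log2 fold change was 0.39 (SE 0.27, adjusted p = 0.494). A gene listed as Prdx1l1 averaged 11.8 FPKM in control, and how reads shared with this likely copy of Prdx1 were assigned is not given in the sources used here. Gpx3, the secreted glutathione peroxidase, which the table lists with the biotype lncRNA, was 36.8, 22.5, and 37.4 in control and 31.3, 50.4, and 48.6 in model, which overlap, with a log2 fold change of 0.42 and an adjusted p of 0.517.

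Of the 10 genes, 2 were DEGs in model against control, and 14.7% of all tested genes were. An adjusted p under 0.05 was reached by 0 of the 10 and by 2.59% of all genes. Those 360 genes became 0 without any 1 of the control libraries, 1 without model 3, 793 without model 1, and 2621 without model 2. Groups that did not overlap were found for 4 of the 10, all higher in model (Sod2, Nqo1, Sod3, and Prdx1), and for 28.7% of all genes, of which 1202 were higher and 2785 lower. On the FPKM scale 9 of the 10 had a positive log2 fold change, with a median of 0.45 against -0.23 over all tested genes. On the TPM scale none of the 10 was positive, and their median was -2.62 against -2.60. For each gene without overlap the two-sided exact permutation p was 0.1, the smallest that 3 against 3 libraries allow.

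**Figure D3:**
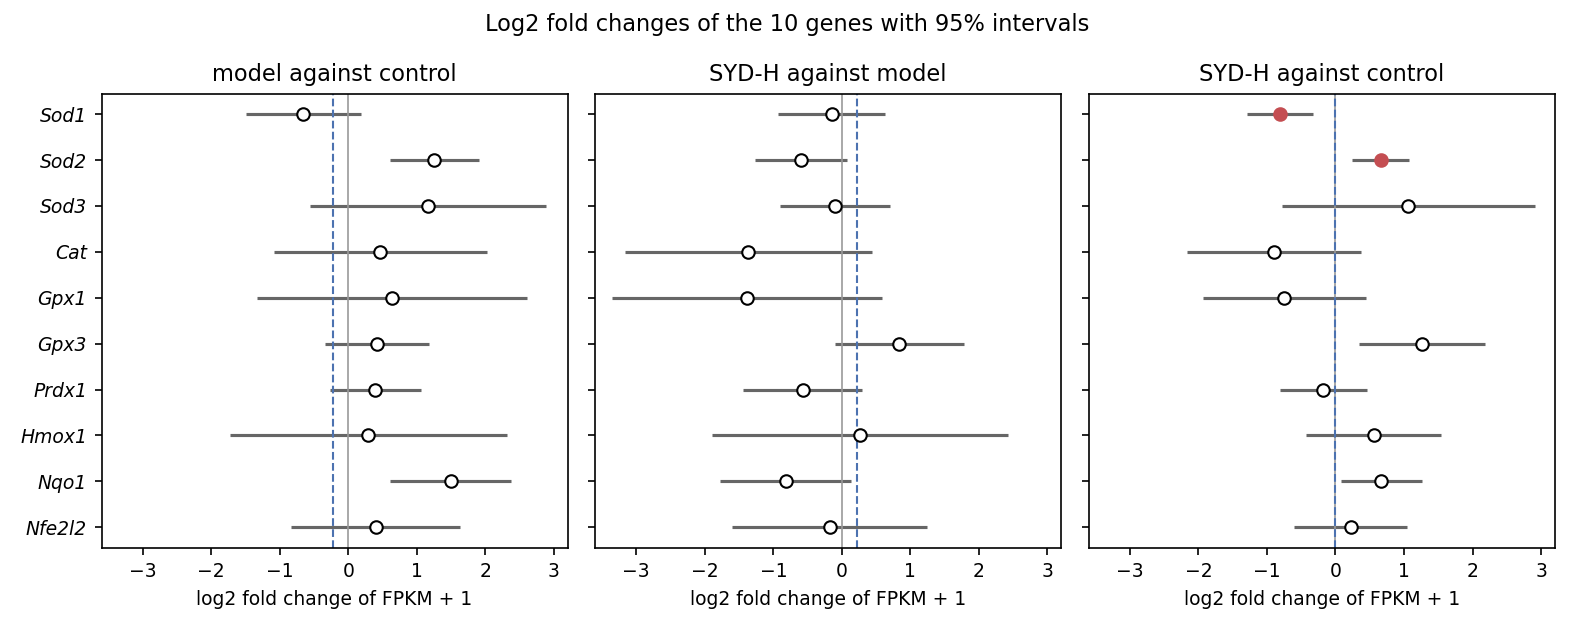
Log2 fold change of FPKM + 1 (x axis) with its 95% interval from limma for the 10 genes in each comparison. Filled red points have an adjusted p under 0.05, and the dashed line is the median over all 13898 tested genes on the FPKM scale. On the TPM scale every log2 fold change of the 10 genes in model against control is negative. Only Sod1 and Sod2 in SYD-H against control are filled.

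When SYD-H was compared with model, Sod2 and Nqo1 were lower and Gpx3 was higher in every SYD-H library, but no gene of the 10 passed a test. Sod2 was 15.7, 19.5, and 16.5 FPKM in SYD-H, below the lowest model library at 20.5. Its log2 fold change was -0.60 (95% interval -1.26 to 0.07) with an adjusted p of 0.723 in limma and an exact permutation p of 0.1. Nqo1 was 4.62, 5.07, and 2.92, below the lowest model library at 5.40, with a log2 fold change of -0.82 (95% interval -1.78 to 0.14), the same adjusted p, and the same exact permutation p. The gap between the groups was thus small beside the range within model, and without the 3 libraries over 70% mitochondrial reads, which leaves model 2 alone in its group, the values were -0.22 for Sod2 and -0.13 for Nqo1. On the TPM scale both were positive, at 0.97 and 0.60, with a median of 1.22 over all genes, so they were lower relative to the median under each of the 4 scalings.

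Gpx3 was 127, 64.2, and 55.3 FPKM in SYD-H, and every value was above the highest model library at 50.4. The log2 fold change was 0.84 (95% interval -0.10 to 1.79, adjusted p = 0.723 in limma). It was 0.83 without the 3 libraries of high mitochondrial share, which leaves 2 SYD-H libraries against model 2 alone and thus no spread within model. Leaving out 1 library at a time, it ran from 0.48 without SYD-H 1 to 1.07 without SYD-H 3. Cat and Gpx1 had larger log2 fold changes of -1.36 and -1.38, but their groups overlapped because model 2 was as low as SYD-H, and the 95% intervals reached from -3.16 to 0.43 and from -3.35 to 0.58. Left without model 2, Cat was at -2.07 and Gpx1 at -2.25, and both met the DEG criteria then, with adjusted p of 0.163 and 0.116, as did 18% of all genes. Sod1, Sod3, Prdx1, Hmox1, and Nfe2l2 overlapped, with log2 fold changes from -0.57 for Prdx1 to 0.26 for Hmox1.

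In this comparison the background was also low. Of the 10 genes, 0 were DEGs against 4.15% of all tested genes, and 0 had an unadjusted p under 0.05. An adjusted p under 0.05 was reached by 0% of the genes in limma, with 0.723 the smallest, although 731 had an unadjusted p under 0.05, and voom on the recovered reads also called 0 of the 10. Groups that did not overlap were found for 3 of the 10 against 11.1% of all genes. The comparison shares the model libraries with model against control and the SYD-H libraries with the one that follows, so opposite or equal signs of a gene in them are not separate evidence.

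Against control, SYD-H cartilage had less Sod1 and more Sod2. Sod1 was 26.3, 27.5, and 29.7 FPKM in SYD-H and at least 39.2 in every control library, and it fell by 0.81 on the log2 scale (SE 0.19, adjusted p = 0.0418). Within each group, Sod1 came in the order of the summed erythroid markers. Between groups it did not: the sum was 45262 in model 3 and 16632 in control 2, with Sod1 at 40.0 and 63.2. The 10 erythroid markers had a median log2 fold change of -2.84 in SYD-H against control, and the part of red cell RNA in Sod1 was not tested. Sod2 rose from 10.6 ± 1.80 to 17.2 ± 1.99 FPKM (SD, n = 3), which is 0.66 on the log2 scale (SE 0.17, adjusted p = 0.0475). Both calls are close to the threshold. Leaving out any 1 of the 6 libraries took the adjusted p over 0.05, to between 0.0505 and 0.138 for Sod1 and 0.0582 and 0.156 for Sod2, while the log2 fold changes stayed at -0.97 to -0.64 and 0.54 to 0.77. On the TPM scale Sod2 was at -0.81 with a median of -1.31 over all genes.

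Gpx3 was higher than control in every SYD-H library, 2.56-fold between the means, or 1.26 on the log2 scale (SE 0.37, adjusted p = 0.0688), and it was the only DEG of the 10. Without SYD-H 1, the library with 127 FPKM, its value was 0.90 and it was no longer a DEG. Nqo1 was above control in every SYD-H library too, by 1.88-fold between the means, with a log2 fold change of 0.67 and an adjusted p of 0.109. Both were negative on the TPM scale, at -0.25 for Gpx3 and -0.52 for Nqo1, with a median of -1.31 over all genes. Hmox1 at 72.2, 25.1, and 29.3 FPKM, Sod3 at 17.2, 27.6, and 12.7, Nfe2l2 at 13.7, 12.2, and 5.44, and Prdx1 at 69.95, 69.3, and 38.2 all overlapped the control range, as did Cat and Gpx1. In all, 2 of the 10 had an adjusted p under 0.05 against 17.3% of all genes, 1 was a DEG against 16.5%, and 4 did not overlap against 42.5%. Without SYD-H 3, the library with 72.7% mitochondrial reads, 3 others of the 10 had an adjusted p under 0.05, namely Cat at -1.44, Nqo1 at 0.86, and Nfe2l2 at 0.59, against 25.4% of all genes, and 3 were DEGs against 18.7%.

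The dismutases were also compared as a ratio within each library, which a single scaling factor per library cannot change. The ratio was chosen after the values were seen, and the part of red cell RNA in its Sod1 values was not tested. Sod2 FPKM divided by Sod1 FPKM was 0.223, 0.195, and 0.218 in control, 0.888, 1.03, and 0.678 in model, and 0.595, 0.706, and 0.556 in SYD-H. All 6 libraries of knees with the Hulth operation were above all control libraries, while model and SYD-H overlapped. On the log2 scale the mean ratio was -2.24 ± 0.10 in control, -0.23 ± 0.31 in model, and -0.70 ± 0.18 in SYD-H (SD, n = 3). Model exceeded control by 2.01 and SYD-H exceeded control by 1.54, each with an exact permutation p of 0.1, the smallest possible. SYD-H minus model was -0.47 with an exact permutation p of 0.2. Adjusted over the 6 ratio tests run, these p-values (exact permutation) are 0.3, 0.3, and 0.4.

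The surrounding pathways were read from 7 further lists. Of their 96 tested genes, 2 (2.08%) had an adjusted p under 0.05 in model against control, both lower, beside 2.59% of all genes. Against control, 7 rose and 11 fell in SYD-H, which is 18.8% beside 17.3% of all genes, so the shares of the lists were near those of all genes and each call named is that of a single gene. With any 1 control library left out, 0 of all tested genes had an adjusted p under 0.05 in model against control in limma, so these 2 calls were lost. Over all genes, the calls in SYD-H against control went from 2407 to 209 without control 3 and to 253 with all 9 libraries in 1 fit. Srxn1, which repairs over-oxidized peroxiredoxins and is an NRF2 target, was 2.32, 3.41, and 1.52 FPKM in control and listed at 0 in all model libraries, at least 24.2-fold lower against a floor of 3 reads over the model group (adjusted p = 0.0419). Osgin1, a further NRF2 target, averaged 1.31 FPKM in control and was also listed at 0 in all 3, at least 47.2-fold lower (adjusted p = 0.0404). Both bounds pool the 3 model libraries, and most of the pooled depth was that of model 2. For a gene of 1 kb, 3 reads are 0.825 FPKM in model 1, 0.451 in model 3, and 0.114 in model 2. The bounds thus hold for the group and not for each library. Nqo1, by contrast, was higher in the same libraries. In SYD-H, Srxn1 was listed at 0 in SYD-H 1 and was 0.77 and 3.07 FPKM in the other libraries.

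Among the other peroxidases and peroxiredoxins, 0 of 9 tested genes had an adjusted p under 0.05 in model against control, and the list had a median log2 fold change of 0.18. Gpx4, which reduces lipid peroxides in membranes, was 54.9, 72.8, and 67.5 FPKM in control and 211, 112, and 122 in model, and was a DEG with a log2 fold change of 1.13 and an adjusted p of 0.126. In SYD-H it was 118, 103, and 140, and against control it rose with a log2 fold change of 0.88 (adjusted p = 0.0298), the only call of its list. Prdx2, the abundant peroxiredoxin of red cells, was 487, 63.9, and 482 in model and 63.2, 61.6, and 213 in SYD-H, low in the same libraries as Gpx1 and Cat.

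Of the glutathione synthesis and transfer genes, 0 of 22 had an adjusted p under 0.05 in model against control. In SYD-H against control 1 rose and 4 fell, among them the transferases Gsta4 (log2 fold change -2.67, adjusted p = 0.0105), Mgst3 (-2.41, adjusted p = 0.0198), and Mgst1 (-2.17, adjusted p = 0.0286). Glrx5, a mitochondrial glutaredoxin of iron-sulfur cluster assembly, was 110, 6.52, and 97.3 FPKM in model, and Gstp1 was 50.2, 39.6, and 89.4. In the thioredoxin list, 0 of 15 genes rose and 1 fell in model against control, and in SYD-H against control 1 rose, Txnip, which binds and inhibits thioredoxin (log2 fold change 1.23, adjusted p = 0.0462).

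Among partners and regulators of NRF2, 0 of 11 genes had an adjusted p under 0.05 in model against control. The most abundant, Sqstm1, the autophagy receptor that also binds KEAP1, was 32.2, 34.1, and 31.2 FPKM in control and 48.4, 31.2, and 40.8 in model. In SYD-H against control, Maff, a small MAF protein, rose (log2 fold change 1.65, adjusted p = 0.0216), and Btrc, part of a ubiquitin ligase that can act on NRF2, fell (-1.06, adjusted p = 0.0433), as did Bach1, a repressor of Hmox1 (-0.82, adjusted p = 0.0375). Of 13 tested genes of NADPH supply and detoxification, 2 rose and 1 fell in the same comparison, with Cbr3 at 1.21, Nqo2 at 1.00, and Taldo1 at -1.24.

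In the heme and iron list, 0 of 16 genes had an adjusted p under 0.05 in model against control, with a median of -0.44. Fth1, the ferritin heavy chain that stores iron and is an NRF2 target, was its most abundant member and was 489, 594, and 550 FPKM in control, 2673, 1123, and 4337 in model, and 998, 747, and 1747 in SYD-H. Every model and SYD-H library was above every control library, and it was a DEG in both comparisons with control, with adjusted p of 0.157 and 0.137. Fech, which puts the iron into heme, was 180, 5.84, and 141 in model and thus low in model 2 like the erythroid markers. In SYD-H against control 2 fell, Tfrc, the transferrin receptor (log2 fold change -1.12, adjusted p = 0.0384), and Alas1, the first enzyme of heme synthesis (-1.34, adjusted p = 0.0144). The 10 erythroid markers were lower in the same comparison, with a median of -2.84, 0 positive, and 3 with an adjusted p under 0.05 in limma, and their part in these values was not tested.

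Of the enzymes that make superoxide, hypochlorous acid, or nitric oxide, 0 of 10 tested genes had an adjusted p under 0.05 in model against control, and 2 were DEGs, both lower. Mpo, the myeloperoxidase of neutrophils, was 248, 257, and 163 FPKM in control, 52.5, 0.62, and 19.5 in model, and 6.24, 14.0, and 20.3 in SYD-H. Against control it fell in SYD-H with a log2 fold change of -4.05 (adjusted p = 0.00807). Cybb, the core of the phagocyte NADPH oxidase, fell as well (-2.11, adjusted p = 0.00992), and Nox4, an oxidase of connective tissue cells, rose (1.29, adjusted p = 0.0187). The 11 neutrophil markers, of which Mpo is one, summed to 3150 to 5971 FPKM in control, 72.9 to 7996 in model, and 543 to 3429 in SYD-H. S100a8 and S100a9 made up 4068 and 3345 of the 7996 FPKM in model 1. Of the 10 tested neutrophil markers, 0 had a positive log2 fold change in either comparison with control, with medians of -3.10 in model and -3.05 in SYD-H, and their part in the values of Mpo and Cybb was not tested. In SYD-H against model, 0 of the 96 tested genes had an adjusted p under 0.05 in limma, and 4 had an unadjusted p under 0.05.

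**Figure D4:**
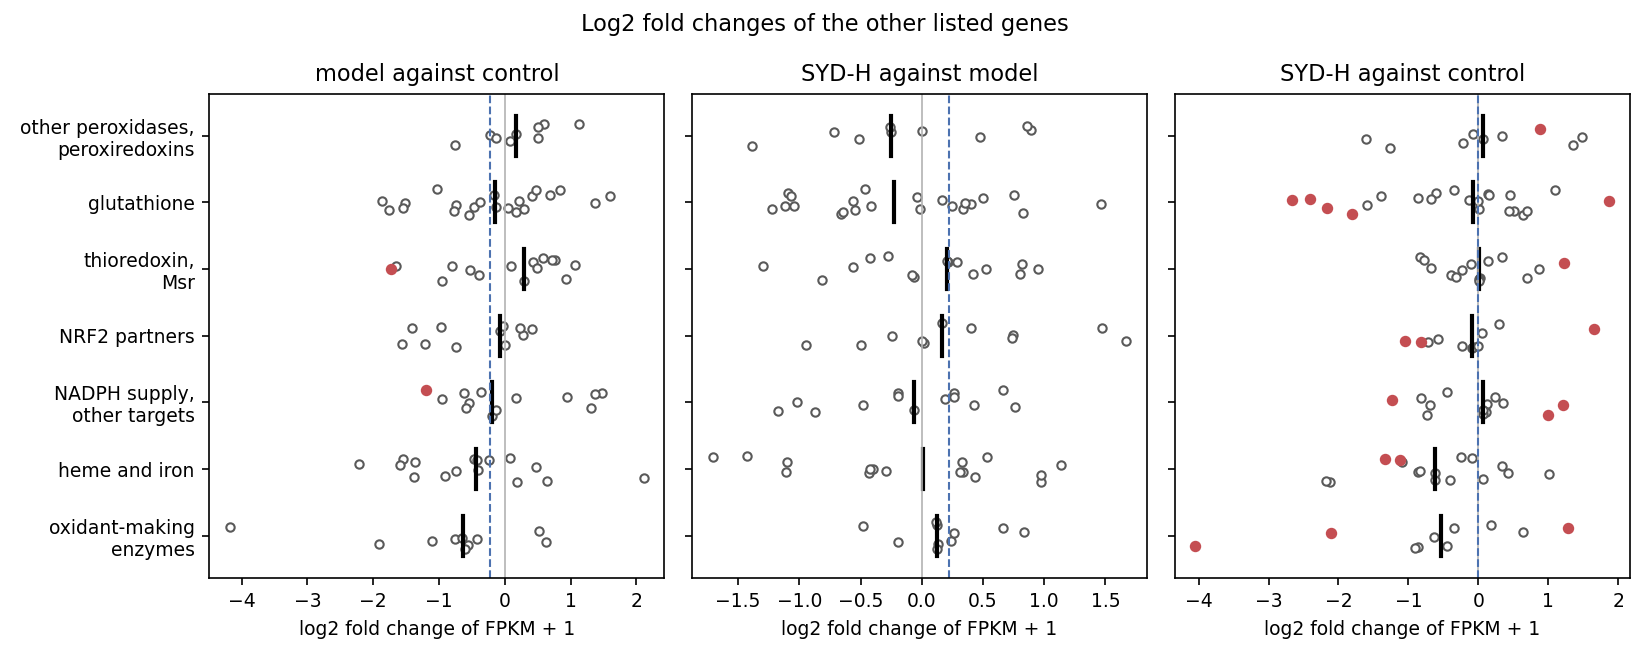
Log2 fold change of FPKM + 1 (x axis) of the tested genes of 7 further lists in each comparison, with 1 point per gene. The black bar is the median of the list, the dashed line is the median of all tested genes, and filled red points have an adjusted p under 0.05, of which there are 2 in model against control and 0 in SYD-H against model.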

How the data were processed

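The libraries are from rat knee cartilage, 3 each of control, model, and SYD-H, grouped by the sample titles. The authors deposited 1 table of FPKM for 32043 genes with lengths, positions, and biotypes. The processing notes of the submitters name HISAT2 2.0.5 and the build hg38, a human build, whereas the gene identifiers are rat. The counting tool, annotation, and rat build are not given in the sources used here, and positions in the table were not mixed with GRCr8. Of the columns of library values, 0 were left out.

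Whole reads were recovered by dividing FPKM times length by a step per library. All values came out whole within 0.1 (100%). A floor is 3 reads and covers counting error only.

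The test was limma 3.58.1 (R 4.3.3; lmFit, eBayes with a trend, two-sided) on log2(FPKM + 1) in the 6 libraries compared, for genes whose mean FPKM was 0.5 or more. A fold change on this scale understates that of genes with low values. Adjustment over the 13898 genes tested followed Benjamini and Hochberg. The study names no tool for its DEGs. Exact permutation tests compared single values.

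The 10 genes and the other lists were chosen with earlier results of these data known. All 10 are named. Of each other list, up to 3 genes with an adjusted p under 0.05 were named, or otherwise the 2 with the highest mean FPKM, and a few others beside them were chosen after their values were seen. Listed genes that matched no entry, or more than 1, were not used here, and 1 listed gene is not reported here.

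Alternatives were another pseudocount, other filters, TPM with and without mitochondrial genes, quantile normalization, all 9 libraries in 1 fit, robust eBayes, voom on the reads, a replicate block, and leaving out each library in turn. Leaving out all libraries over 70% mitochondrial reads was added after the data were seen.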

Additional observations from a re-analysis of the deposited data

How the results depend on the processing

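Over the 10 genes and all alternatives, the direction and the side of the adjusted threshold were kept by 147 log2 fold changes in model against control, 149 in SYD-H against model, and 126 in SYD-H against control. The direction turned in 16, 21, and 8. In SYD-H against control the calls of Sod1 and Sod2 were lost with the same direction in 20. Beyond the construction of each alternative, the cause was not tested. On the TPM scale the values include the mitochondrial reads, so a library with many of them has lower values for all other genes. There, the log2 fold changes in model against control were -1.78 for Sod2, -1.73 for Sod3, -2.70 for Cat, -2.57 for Gpx1, -2.68 for Gpx3, -2.77 for Prdx1, -2.86 for Hmox1, -1.13 for Nqo1, and -2.40 for Nfe2l2. In SYD-H against model they were 1.44 for Sod1, 0.97 for Sod2, 1.44 for Sod3, 0.25 for Cat, 0.27 for Gpx1, 1.06 for Prdx1, 0.60 for Nqo1, and 1.19 for Nfe2l2. In SYD-H against control they were -0.81 for Sod2, -0.30 for Sod3, -0.25 for Gpx3, -0.96 for Hmox1, -0.52 for Nqo1, and -1.21 for Nfe2l2. The number of the 10 with an adjusted p under 0.05 in model against control was 5 on that scale, all lower, against 69.6% of all genes, and 6 were DEGs against 75.2%, while 3 were DEGs in SYD-H against control, against 43.4%. On the TPM scale without mitochondrial genes, SYD-H against model turned positive at 0.048 for Sod1, 0.092 for Sod3, and 0.018 for Nfe2l2, and 1 gene instead of 2 had an adjusted p under 0.05 in SYD-H against control. Quantile normalization gave -0.70 for Gpx1 in model against control and 2 DEGs in SYD-H against control. Voom gave -0.57 for Hmox1 in model against control, 1 DEG in SYD-H against model, and 2 in SYD-H against control. Without the filter on low values, 1 of the 10 had an adjusted p under 0.05 in model against control and 0 in SYD-H against control. With all 9 libraries in 1 fit these numbers were 2 and 0, and with robust eBayes 1 remained in SYD-H against control.

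Leaving out the libraries over 70% mitochondrial reads turned Cat to -0.94, Gpx1 to -1.09, and Hmox1 to -1.59 in model against control, where 2 of the 10 then had an adjusted p under 0.05 in limma (Hmox1 and Nfe2l2), against 26.3% of all genes. The model group was then model 2 alone, assumed to vary like the control libraries. It turned Sod1 to 0.42, Sod3 to 0.15, and Prdx1 to 0.018 in SYD-H against model. Leaving out each library in turn, the number with an adjusted p under 0.05 ran from 0 to 2 in model against control and from 0 to 3 in SYD-H against control, and the number of DEGs from 2 to 5, from 0 to 3 in SYD-H against model, and from 0 to 3 in SYD-H against control. The highest of these came without model 2 for the comparisons with model and without SYD-H 3 for SYD-H against control. In model against control Sod3 ran from 0.32 to 1.60, Cat from -0.011 to 1.18, Gpx1 from 0.18 to 1.502, Gpx3 from 0.19 to 0.64, Prdx1 from 0.15 to 0.55, Hmox1 from -0.49 to 1.24, and Nfe2l2 from 0.029 to 0.96. In SYD-H against model Sod1 ran from -0.46 to 0.028, Sod3 from -0.39 to 0.14, Cat from -2.07 to -0.88, Gpx1 from -2.25 to -0.92, Prdx1 from -0.72 to -0.29, Hmox1 from -0.68 to 1.05, and Nfe2l2 from -0.73 to 0.19. In SYD-H against control Sod3 ran from 0.22 to 1.5, Cat from -1.44 to -0.51, Gpx1 from -1.19 to -0.46, Hmox1 from 0.095 to 0.84, Prdx1 from -0.32 to 0.11, and Nfe2l2 from -0.0032 to 0.59.

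The correlations of same-numbered libraries over genes, as deviations from the group means, ran from -0.27 to 0.19. Libraries of different numbers were not correlated in this way, so these values do not settle whether the numbers pair the libraries. With the number as a replicate block, 1 of the 10 was a DEG in SYD-H against model and 0 had an adjusted p under 0.05 in SYD-H against control. Over all genes the block left 0 calls in limma in each comparison, with 1851, 606, and 3959 at an unadjusted p under 0.05 in model against control, SYD-H against model, and SYD-H against control. Depth limits Nqo1 and Nfe2l2, with 67 and 46 reads in the model library with the fewest.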

Other observations

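Hmox1 was also set against Hmox2, the constitutive heme oxygenase, within each library, a ratio chosen after the values were seen. Hmox2 was 5.65 to 6.14 FPKM in control, 4.46 to 5.15 in model, and 3.45 to 8.41 in SYD-H. Hmox1 divided by Hmox2 was 3.76, 4.86, and 4.48 in control, 19.8, 1.73, and 7.63 in model, and 9.24, 2.98, and 8.48 in SYD-H. The ranges overlapped in every comparison, with exact permutation p of 0.7, 1, and 0.4 (0.84, 1, and 0.6 adjusted over the 6 ratio tests) for model against control, SYD-H against model, and SYD-H against control. Keap1, the inhibitor of NRF2, singled out after its values were seen, was 8.26, 8.52, and 8.001 FPKM in control and 0, 10.3, and 2.68 in model, and its log2 fold change of -1.42 had an adjusted p of 0.428 in limma. Synovial fibroblast markers summed to 3127 to 7001 FPKM in control, 1544 to 8966 in model, and 6623 to 11205 in SYD-H, macrophage markers to 157 to 198, 128 to 291, and 178 to 351, and skeletal muscle markers to 20.8 to 339, 20.6 to 963, and 32.3 to 1189. None of the 10 genes was compared with these sums.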
